A study of Mus musculus with 24 samples.

Results

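The loci of 6 mouse blood cell surface proteins were examined in enhancer lists from normal and leukemic myeloid cells: Kit, Flt3, Cd34, Csf1r, Csf3r and Itgam. Members were all regions that overlapped 1 fixed window per gene by at least 1 bp. The windows measured 220 to 280 kb and 1510 kb together. Of the 26592 regions in the GMP, k+ and k- lists, 42 lay in these windows: 8 of 3332 in the GMP list, 11 of 9404 in the k+ list and 23 of 13856 in the k- list. From the class lists, the windows took in 24 of the 15189 gained, 3 of the 1504 lost and 5 of the 1870 maintained entries. The gene table at hand, for build GRCm38, places each gene on the chromosome of its window; where the gene starts inside the mm9 window was not checked.

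The study profiled histone marks by chromatin immunoprecipitation and sequencing in bone marrow cells of C57BL/6 mice. Granulocyte-monocyte progenitors (GMP) were the normal population, and leukemia stem cells and mature acute myeloid leukemia cells were the leukemic ones. The leukemia was driven by the MLL-AF10 fusion and, per the labels' growth protocol, its cells were cultured with WEHI-conditioned medium. For each population there was 1 library each of H3K27ac, H3K4me1, H3K4me3 and input, with no replicate. The sources used here do not give the number of mice behind a library or how the fusion was introduced. A second set of libraries followed leukemia stem cells through 0, 24, 48 and 72 hours with A-485, which blocks the acetyltransferases p300 and CBP, and was not analysed here.

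The lists are called by the words in their names. The labels do not say which leukemic population k+ or k- stands for, and the Kit result below was not used to decide it. A region in both the GMP list and a leukemia list appears in the maintained list with the length they share. A leukemia region (k+ and k- merged) that touches no GMP region is in the gained list, and a GMP region that touches no leukemia region is in the lost list. These definitions were recovered from the lists: the gained and lost lists were identical to regions rebuilt this way. For the maintained list, the number of entries equalled the 1870 overlaps of GMP with merged leukemia regions. Its positions were not compared over the whole list. The lists hold positions alone, so the depth and strength behind a region are unknown. Absence from a list says that a region was not listed, and not that the chromatin there carried no mark. Fewer cells with a mark and a weaker mark per cell cannot be told apart in such lists.

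Kit and Flt3 are receptor tyrosine kinases that bind stem cell factor and Flt3 ligand, and they sustain stem and progenitor cells. Cd34 is a sialomucin on the surface of early progenitors. Csf1r, the receptor tyrosine kinase for macrophage colony-stimulating factor, and Csf3r, the cytokine receptor for granulocyte colony-stimulating factor, carry signals for monocyte and neutrophil production. Itgam is the CD11b integrin chain, which pairs with CD18 on mature myeloid cells. Enhancers of such genes can lie far from the start site, in introns or between genes, and are usually recognised by H3K4me1 and H3K27ac.

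By number of regions, the lists were ordered differently at the progenitor and the myeloid loci, which at the progenitor loci rested on Flt3. The windows of the progenitor genes Kit, Flt3 and Cd34, of 780 kb together, held 7 GMP, 3 k+ and 5 k- regions. The windows of Csf1r, Csf3r and Itgam, of 730 kb together, held 1 GMP, 8 k+ and 18 k- regions. Covered length at the progenitor loci was 4000 bp in GMP, 2400 bp in k+ and 4600 bp in k-, so that by length k- and not GMP came first. At the myeloid loci it was 1000, 8600 and 20400 bp, in the order of the counts. Gained regions were split 4 to 20 between the progenitor and myeloid loci, and all 3 lost regions were at Flt3. Single loci carried much of this: Flt3 held 5 of the 7 GMP regions and Itgam 9 of the 18 k- regions. Kit and Cd34 went opposite ways, with 2 GMP and 0 k- regions at Kit and 0 GMP and 2 k- regions at Cd34. With the window widened by 50 kb at each end, Flt3 had 5 regions in each of the GMP, k+ and k- lists. The GMP lead also rested on narrow regions. Of at least 800 bp, the progenitor loci held 1 GMP, 1 k+ and 2 k- regions, and the myeloid loci 1, 4 and 12. Among these wider regions k- came first in both sets. The order is read beside the whole lists, in which k- is the longest and GMP the shortest. Regions are not replicates, and no test was made between the 2 sets of loci.

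**Figure D1:**
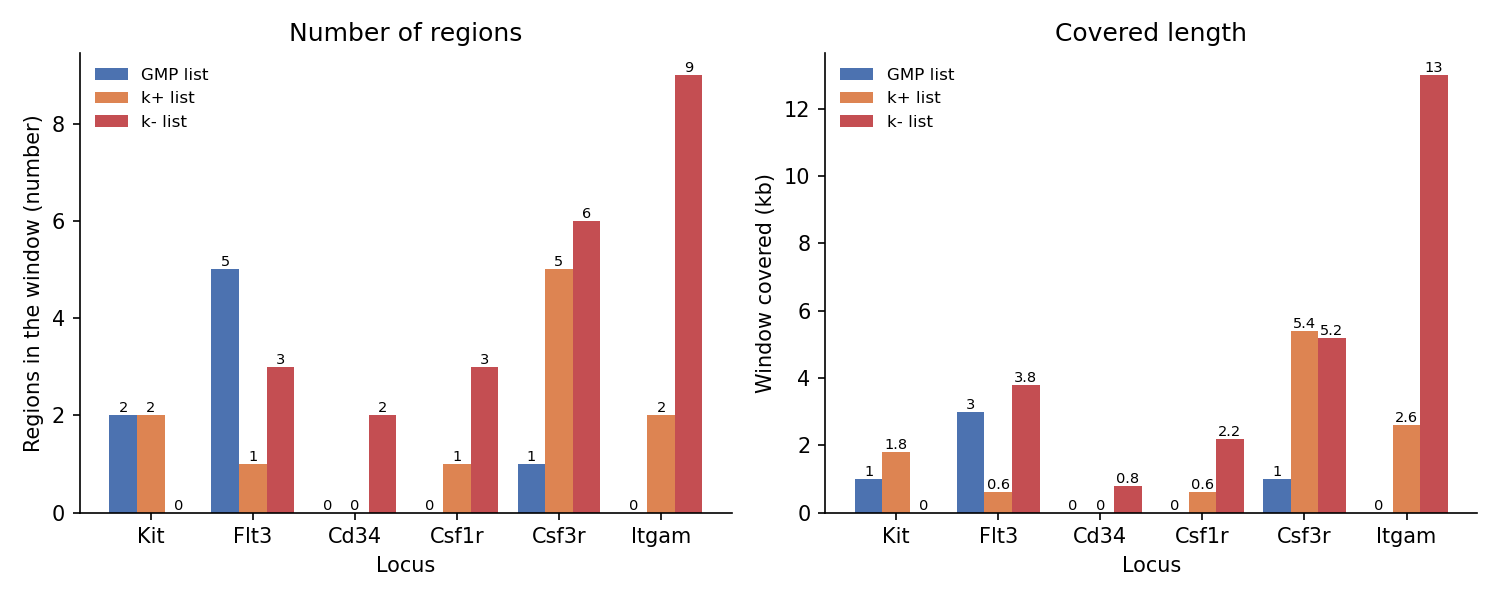
Number of listed regions (left axis, count) and window length covered (right panel, kb) at each locus in the GMP, k+ and k- lists; each bar is 1 list with no replicate. Kit has 2 GMP, 2 k+ and 0 k- regions, while Itgam has 0 GMP, 2 k+ and 9 k- regions.

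At Kit, the regions of the normal progenitor list were kept in k+ and had no counterpart in k-. The window lies on chromosome 5 in band qC3.3, at chr5:75870000-76150000 of build mm9, which all positions below use. Its GMP regions were chr5:76126001-76126400, of 400 bp, and chr5:76127401-76128000, of 600 bp. The k+ list held chr5:76126001-76126200, of 200 bp, and chr5:76126601-76128200, of 1600 bp. The first shared 200 bp with the first GMP region, and the second contained the whole 600 bp of the other. All 4 regions lay within 2.2 kb, 116 to 118 kb beyond the centre of the window. The maintained list accordingly had 2 pieces here, of 200 and 600 bp, and the gained and lost lists had 0. The rest of the window was empty in all lists.

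The k- list had 0 regions in the Kit window, and the k- region nearest to the window lay 91 kb outside it. The k- region nearest to the wider k+ region, a different one, lay 316 kb from it. Of all 280 kb tiles of the genome, 63.4% held 0 k- regions, and of the tiles with a region of any list 9.55% did. Tiles with at least 2 GMP regions, as at Kit, numbered 798, and 47 of these (5.89%) held 0 k- regions. At least 2 k+ regions with 0 k- regions, as at Kit, were found in 40 of the 9473 tiles (0.422%). At least 2 k+ regions, with any number of k- regions, were found in 1934. These conditions were chosen after the Kit values had been seen. The counts of 2 depend on how a small cluster is split: joining regions within 1 kb left 1 GMP and 1 k+ region at Kit. Since the Kit regions lie near the window's end, trimming 25 kb from each end left 0 regions of every list. In the mouse gene table, which is for build GRCm38 and was used for gene order only, Kit lies between Pdgfra and Kdr, which also encode receptor tyrosine kinases. Which gene the regions belong to was not tested.

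At Flt3, the GMP list had more regions than either leukemia list. The window, chr5:148040000-148310000 in band qG3, held 5 GMP regions covering 3000 bp, 1 k+ region of 600 bp and 3 k- regions covering 3800 bp. The widest GMP region, chr5:148237001-148238800, of 1800 bp, lay wholly inside the k- region chr5:148237001-148239400, of 2400 bp. A GMP region of 200 bp, chr5:148177801-148178000, lay inside the k- region chr5:148177801-148178200, of 400 bp. These regions gave maintained pieces of 1800 and 200 bp. The k+ list met 0 of the 5 GMP regions.

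The 3 lost regions of the 6 loci were all at Flt3. They were chr5:148152401-148153000, of 600 bp, chr5:148204801-148205000, of 200 bp, and chr5:148230601-148230800, of 200 bp. Their distances to the nearest leukemia region, which was in k- each time, were 21.2, 26.6 and 6.2 kb. Over the 1463 lost regions on chromosomes with a leukemia region, the median distance was 8.4 kb (quartiles 0.6 and 53.7 kb), so these lie in the middle of that range. The lost regions measured 200 to 600 bp, and the kept ones 200 and 1800 bp.

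Leukemia regions of Flt3 with no GMP partner were chr5:148174201-148175200, of 1000 bp in k-, and chr5:148283201-148283800, of 600 bp in k+. The first lay 2.6 kb from a GMP region, and the second 44.4 kb from one. The single k+ region thus lay 43.8 kb from the nearest k- region, and k+ and k- shared 0 bp in this window. Of all 270 kb tiles, 0.957% held at least 5 GMP regions, and of those with a region of any list 2.41% did. Those 94 tiles had a median of 7 k+ and 9 k- regions, against 1 and 3 at Flt3, and 10 of them (10.6%) had at most 1 k+ region. These conditions were chosen after the Flt3 values had been seen. The k+ and k- counts depend on the window's edge: widening it by 50 kb at each end raised both to 5. In the GRCm38 gene order Flt3 is followed by Pan3 and Flt1.

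At Cd34, k- alone had regions. The window, chr1:196660000-196890000 in band qH6, held 2 k- regions of 400 bp each, at chr1:196812201-196812600 and chr1:196821001-196821400, within 9.2 kb. Both were in the gained list. At least 2 k- regions were common, found in 23.3% of all 230 kb tiles and 62.7% of those with a region of any list. The GMP and k+ lists had 0 regions here, and their nearest regions lay 1590 and 911 kb outside the window. A window without a GMP region was common, at 84.2% of all 230 kb tiles. Taken separately, 73.0% of all 230 kb tiles held 0 k+ regions. Among tiles with a region of any list the shares were 57.6% and 27.3%. Both k- regions fell below the median width of the whole k- list, 800 bp. In the gene order Cd34 lies between Plxna2 and Cd46.

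**Figure D2:**
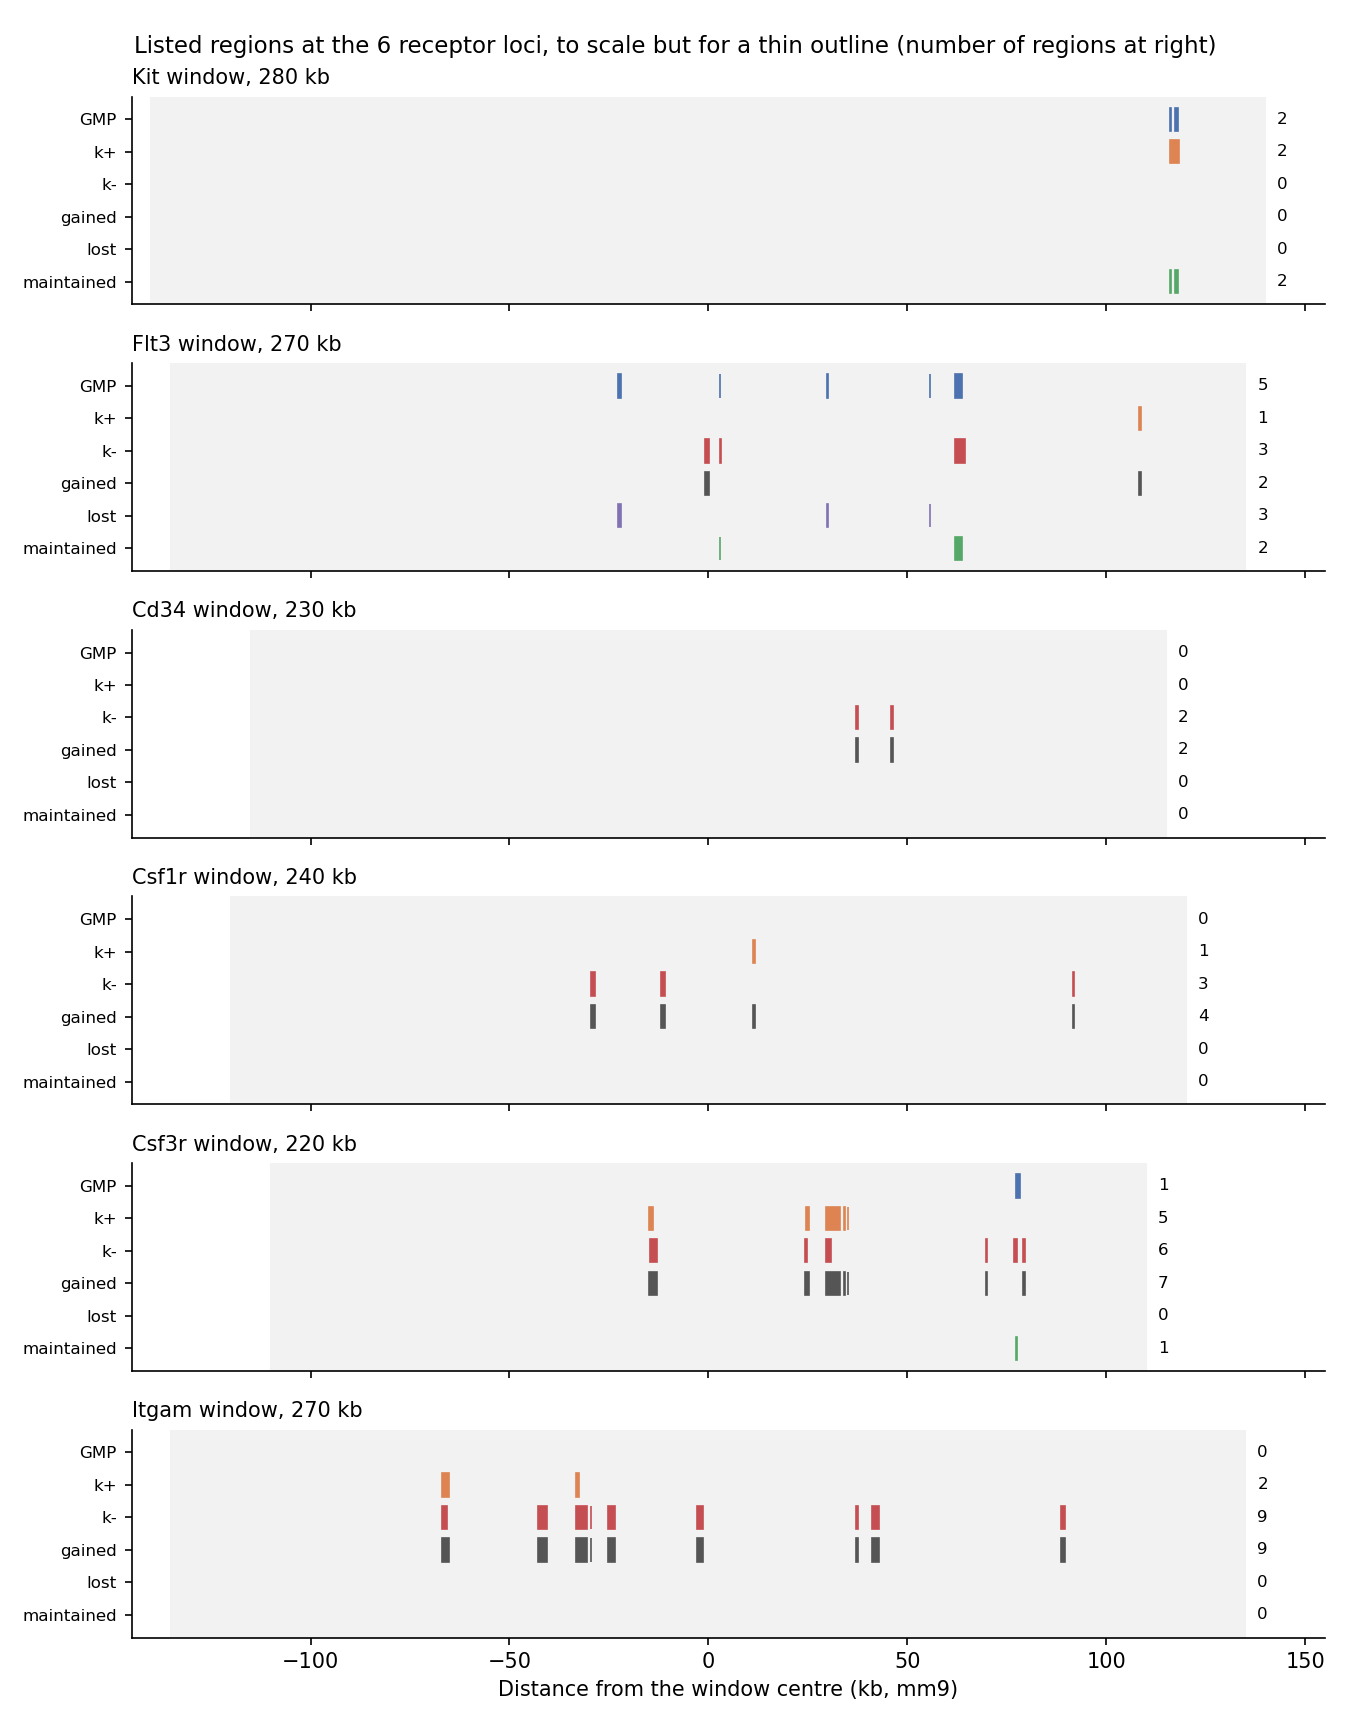
Position of every listed region in the 6 windows (grey), against distance from the window centre in kb; rows are the GMP, k+ and k- lists and the gained, lost and maintained classes, and the number at right is the count of regions. The Kit regions sit together 116 to 118 kb beyond the centre, the Flt3 row alone has lost regions, and k- regions spread across the Itgam window.

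At Csf1r, each leukemia list had regions of its own and GMP had none. The window, chr18:61160000-61400000 in band qE1, held 3 k- regions: chr18:61250601-61251400, of 800 bp, chr18:61268001-61269200, of 1200 bp, and chr18:61371601-61371800, of 200 bp. The k+ list held chr18:61291201-61291800, of 600 bp, 22 kb from the nearest k- region. All 4 were in the gained list, 1 from k+ alone and 3 from k- alone. The nearest GMP region lay 464 kb outside the window. A window without a GMP region was common, at 83.8% of all 240 kb tiles and 57.1% of those with a region of any list. At least 1 k+ region was found in 27.65% and 73.2% of these tiles, and at least 3 k- regions in 17.7% and 46.7%. At least 4 gained regions, as here, were found in 14.6% of all 240 kb tiles and 38.5% of those with a region of any list. Csf1r lies next to Pdgfrb, a related receptor tyrosine kinase gene, in the GRCm38 order.

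At Csf3r, the leukemia lists had similar counts and lengths and coincided in part. The window, chr4:125600000-125820000 in band qD2.2, held 5 k+ regions covering 5400 bp, 6 k- regions covering 5200 bp and 1 GMP region of 1000 bp. At least 5 k+ regions were found in 5.23% of all 220 kb tiles, and at least 6 k- regions in 6.45%; of the tiles with a region of any list, 14.3% and 17.7% did so. The widest region of the 6 loci was the k+ region chr4:125739601-125743000, of 3400 bp. The k- region chr4:125739601-125740800, of 1200 bp, began at the same position and lay inside it. Further k+ and k- pairs were chr4:125695001-125696000 with chr4:125695201-125697200, sharing 800 bp, and chr4:125734601-125735200 with chr4:125734401-125734800, sharing 200 bp. In all, 2200 bp were shared, or 40.7% of the k+ length.

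Around the wide k+ region, 4 k+ regions covered 4400 bp within 10.6 kb. Of these, chr4:125744201-125744400 and chr4:125745001-125745200, of 200 bp each, were in k+ only, 3.4 and 4.2 kb from the nearest k- region. In turn k- alone had 3 regions within 9.8 kb at the far side of the window: chr4:125779801-125780000, of 200 bp, chr4:125786801-125787600, of 800 bp, and chr4:125789001-125789600, of 600 bp. The nearest k+ region to this group was 34.6 kb away. The GMP region of Csf3r, chr4:125787401-125788400, lay among these k- regions.

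The class of that GMP region rested on a single step of the 200 bp grid. It shared 200 of its 1000 bp with the k- region of 800 bp and is in the maintained list as chr4:125787401-125787600. The k- region of 600 bp began 600 bp beyond its other end and was counted as gained. Within 1 kb, both k- regions met the GMP region; with at least 50% of both regions shared, neither did. The window's gained list had 7 regions covering 7600 bp: 3 present in both leukemia lists, 2 in k+ only and 2 in k- only. In the gene order Csf3r lies between Grik3 and Mrps15.

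**Figure D3:**
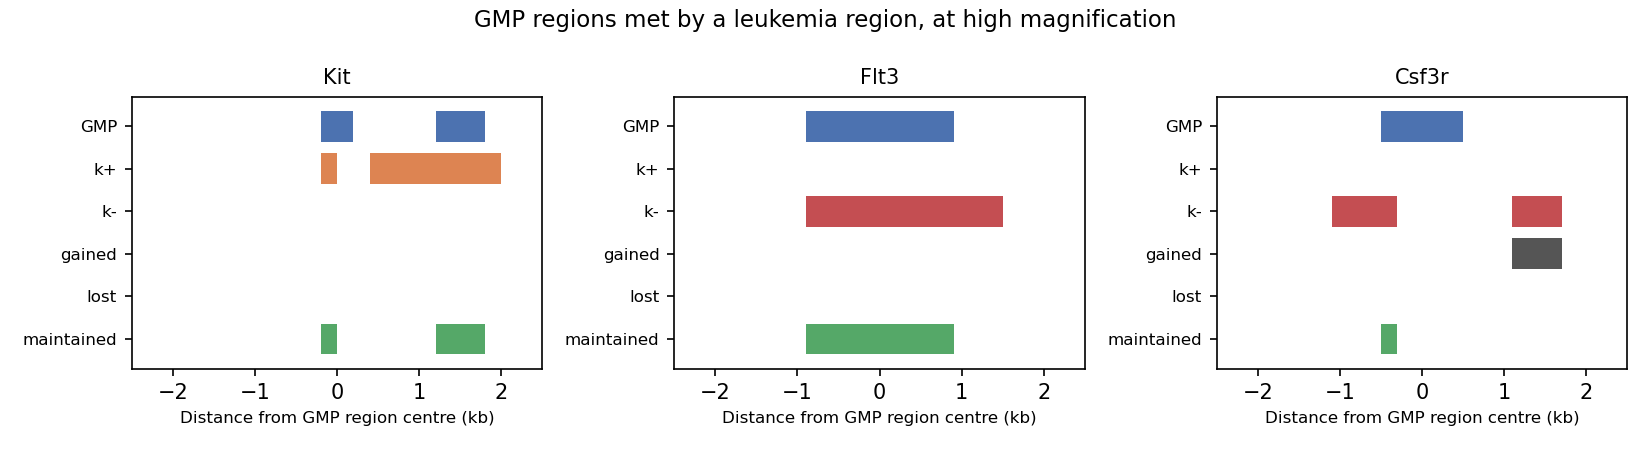
GMP regions that meet a leukemia region at Kit, Flt3 and Csf3r, against distance in kb from the centre of the GMP region (the first of the pair at Kit, the widest at Flt3); bars are regions of each list. At Kit the overlap is with k+, at Flt3 the k- region contains the 1800 bp GMP region, and at Csf3r only 200 bp are shared.

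Itgam had the most leukemia regions of the 6 loci once k+ and k- were merged, 9 against 8 at Csf3r. Most of the 9 were in k- alone. The window, chr7:135100000-135370000 in band qF3, held 9 k- regions covering 13000 bp, 2 k+ regions covering 2600 bp and 0 GMP regions. At least 9 k- regions were found in 3.58% of all 270 kb tiles, and at least 9 gained regions, as here, in 4.20%; of the tiles with a region of any list, 9.01% and 10.6% did so. A window without a GMP region was common, at 82.3% of all 270 kb tiles and 55.4% of those with a region of any list. Covered length was 5.00 times as great in k- as in k+, against 1.63 times over the whole lists. Of the 352 tiles with at least 9 k- regions, 57 (16.2%) had 0 GMP regions and 14 (3.98%) had at most 2 k+ regions; their median was 8 k+ regions. These conditions were chosen after the Itgam values had been seen.

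The k+ regions of Itgam both coincided with k- regions. The k+ region chr7:135168001-135169800, of 1800 bp, and the k- region chr7:135168001-135169200, of 1200 bp, had the same start. The k+ region chr7:135201601-135202400, of 800 bp, began with and lay inside the widest k- region of the 6 loci, chr7:135201601-135204600, of 3000 bp. Together 2000 bp were shared, or 76.9% of the k+ length. Around the widest region k- had 4 regions covering 7200 bp within 19.4 kb, the others being chr7:135192201-135194400, of 2200 bp, chr7:135205401-135205600, of 200 bp, and chr7:135209801-135211600, of 1800 bp.

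The remaining k- regions of Itgam were chr7:135232201-135233600, of 1400 bp, chr7:135272201-135272600, of 400 bp, chr7:135276201-135278000, of 1800 bp, and chr7:135323601-135324600, of 1000 bp. They lay 29.8 to 121 kb from the nearest k+ region. All 9 leukemia regions of the window were gained, 2 in both lists and 7 in k- only. The nearest GMP region lay 116 kb outside the window. In the gene order Itgam lies between Trim72 and Itgax, and Itgax and the next gene, Itgad, also encode integrin alpha chains of myeloid cells. To which of these genes the regions belong was not tested.

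The ratio of k- to k+ length differed between the loci in direction. It was 6.33 at Flt3, 5.00 at Itgam, 3.67 at Csf1r and 0.963 at Csf3r; Kit had 1800 bp in k+ and 0 bp in k-, and Cd34 had 0 bp in k+ and 800 bp in k-. Over the 6 loci k- covered 25000 bp and k+ 11000 bp, a ratio of 2.27, against 1.63 for the whole lists. Without Itgam the ratio was 1.43, and without Csf3r it was 3.54. The excess of k- at the 6 loci over the whole lists was thus not seen without Itgam. Flt3 and Csf1r also had ratios above 1.63 in the windows as set. The Flt3 value depended on the window's edge, as its k+ length came from 1 region of 600 bp. Widening that window by 50 kb at each end raised k+ coverage to 4400 bp and k- coverage to 6400 bp. At that width the Flt3 ratio lay below the 1.63 of the whole lists.

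Overlap between the lists at the 6 loci was within the counting error of the whole lists. Of the 8 GMP regions, 3 were lost, or 37.5% (exact Clopper-Pearson 95% interval 8.52 to 75.5%), against 45.1% of the whole GMP list; without Flt3, 0 of 3 were lost. Of the 29 merged leukemia regions, 24 were gained, or 82.8% (64.2 to 94.2%), against 90.0%. The k+ list met 2 of the 8 GMP regions, both at Kit, against 37.8% of the whole GMP list. The k- list met 3, at Flt3 and Csf3r, against 47.4%. No GMP region at these loci was met by both leukemia lists. Elsewhere in the GMP list such regions occurred, because the shares given above for k+, k- and lost regions together exceed the whole. Whole-list counts fix their number: 1504 of the 3332 entries were lost, while k+ touched 1258 and k- touched 1580. No interval was made for this share at the 6 loci, so their absence among these 8 regions is not read as a trait of the loci. Seen from leukemia, 2 of 11 k+ regions met a GMP region, against 12.4% of the whole list, and 3 of 23 k- regions did, against 10.5%.

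The leukemia lists met each other at Csf3r and Itgam only, among these loci. Of the 11 k+ regions, 5 met a k- region, or 45.5% (16.7 to 76.6%), against 61.0% of the whole k+ list. Of the 23 k- regions, 5 met a k+ region, or 21.7% (7.46 to 43.7%), against 39.5%. Of the 24 gained regions, 5 were in both lists (20.8%, against 28.3% of all gained regions), 4 in k+ only (16.7%, against 21.2%) and 15 in k- only (62.5%, against 50.5%). The intervals of all these shares hold the value of the whole list, so at this number of regions no difference from the whole lists was detectable. These intervals allow for counting error alone and treat each region as independent of its neighbours.

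**Figure D4:**
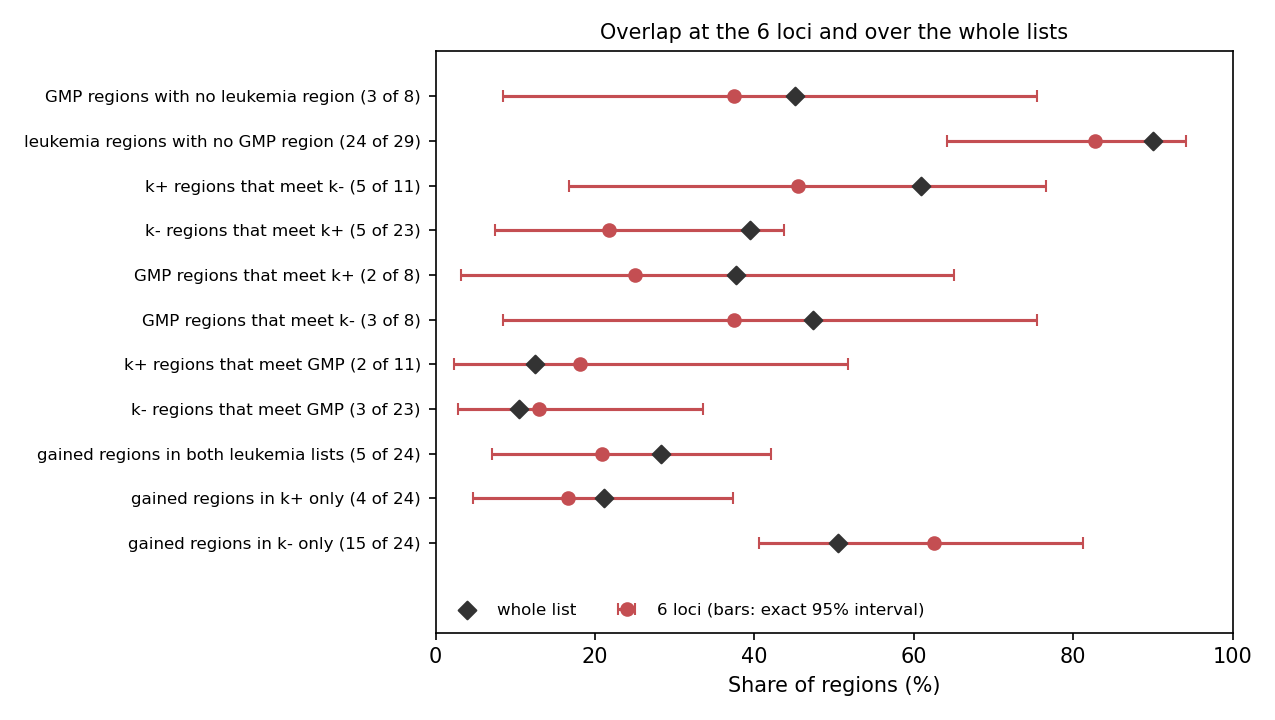
Shares of regions (%) that meet or miss another list at the 6 loci (circles, bars are exact 95% intervals, counts in the row names) and over the whole lists (diamonds). Each diamond lies inside the interval of its row, as for the share of k- regions that meet k+, at 39.5% against an upper bound of 43.7%.

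Regions were denser in the 6 windows than over the genome as a whole. The GMP list had 0.530 regions per 100 kb here against 0.125 over the genome, or 4.22 times as many (counting interval 1.82 to 8.32). The ratio was 2.06 (1.03 to 3.68) in k+ and 2.92 (1.85 to 4.38) in k-. Single loci weighed heavily: without Flt3 the GMP ratio was 1.93, and without Csf3r the k+ ratio was 1.31. At Kit, Flt3 and Cd34 the ratios were 7.15 (2.88 to 14.7) in GMP, 1.09 (0.224 to 3.17) in k+ and 1.23 (0.399 to 2.87) in k-. At Csf1r, Csf3r and Itgam they were 1.09 (0.0276 to 6.08), 3.09 (1.34 to 6.10) and 4.72 (2.80 to 7.47). Much of the genome holds no listed region: against tiles with a region of any list, the ratios over the 6 loci were 1.63 in GMP, 1.13 in k- and, turned in direction, 0.793 in k+. These Poisson intervals treat regions as independent and are too narrow for clustered regions.

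Widths at the 6 loci had a median of 500 bp in GMP (200 to 1800 bp), 600 bp in k+ (200 to 3400 bp) and 1000 bp in k- (200 to 3000 bp). The medians of the whole lists were 600, 800 and 800 bp. Regions of at least 800 bp made up 2 of 8 in GMP, 5 of 11 in k+ and 14 of 23 in k-, against 36.7%, 53.3% and 57.6% of the whole lists. Of the 14 such k- regions, 12 were at Csf1r, Csf3r and Itgam. The wide k+ regions were at Kit, Csf3r and Itgam.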

How the data were processed

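The authors deposited 6 lists of regions, each with 3 columns (chromosome, start, end) and 0 columns of score or counts. Per the submitters' processing notes, BWA, Picard, MACS2, HOMER and deepTools were used, with build mm9; the sources used here do not give their settings, the marks that entered a region or the meaning of short in the list names. All starts and ends were multiples of 200 bp, and positions are printed counted from 1.

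Here, windows came from the stated rule, an overlap of at least 1 bp counted, and lengths were summed inside the window. Tiles are consecutive genome stretches as long as a locus window (mm9 lengths from GenomeInfoDb 1.38.1, bands from circlize 0.4.16, R 4.3.3). Regions within 12.5 kb formed groups. Analysis ran in Python 3.11.15 with pandas 2.3.3 and SciPy 1.17.1, and the overlap code was tested on simulated data. Inside each window the text names every GMP, lost and maintained region, the widest k+, k- and gained region and any region over 3000 bp; the other regions were added since they were few. Members and lists were chosen with earlier results of these data known. There were no replicates, so no p-value is given. No mm9 gene annotation or genome was used, so regions were not placed in exons, introns or promoters, other receptor and ligand genes were not placed, and no sequence is shown.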

Additional observations from a re-analysis of the deposited data

How the results depend on the processing

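No paired analysis was possible because there is a single list for each population, and leaving out a replicate was not applicable. Joining regions within 1 kb was an alternative for widths chosen after seeing the data. Of 171 other settings' values for the 6 loci together, 148 stayed within 1.5 times or within the counting interval, 22 moved and 1 turned. The tally does not measure robustness. Some values could not change, since leaving out a locus without regions alters no count and no region crossed a window edge. Others stayed only because the interval was wide: the GMP density ratio was 4.22, and 1.93 without Flt3. The lost share was 37.5%, and 62.5% with 50% of both regions shared. Counting by midpoint changed no count. Regions of at least 800 bp numbered 2 in GMP, 5 in k+ and 14 in k-. Without Flt3 there were 3 GMP regions covering 2000 bp, 0 lost regions (0% of GMP) and 3 maintained pieces. Without Kit there were also 3 maintained pieces, as with windows trimmed by 25 kb. Without Csf3r k+ had 6 regions covering 5600 bp and the k- to k+ length ratio was 3.54. Without Itgam k- had 14 regions covering 12000 bp, the ratio was 1.43 and 15 regions were gained. With 50% of both regions shared, the k+ share meeting k- was 9.09% and the reverse share 4.35%. Against tiles with a region of any list, the density ratio was 1.63 in GMP and 1.13 in k-, and turned to 0.793 in k+, by construction of a denser background. Joining regions within 1 kb raised the k+ median width to 1000 bp. Depth is unknown, so how far calling thresholds set these counts was not tested.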

Other observations

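Outside the windows, the 250 kb on either side gave further values. After the Flt3 window, on its far side, lay 5 k+ regions covering 5600 bp, 5 k- regions covering 6800 bp, 0 GMP and 7 gained regions, while the 250 kb before it held 0 regions of every list. Around Cd34 the 250 kb on both sides held 0 regions of every list, so its 2 k- regions stood alone. Before the Kit window lay 2 k- regions covering 1400 bp and 1 k+ region of 400 bp, and after it 1 k+ region of 200 bp and 0 k- regions. Before the Csf1r window lay 2 k- regions covering 3600 bp, and no other list but the gained list had a region on either side. After the Csf3r window lay 2 GMP, 1 k+ and 4 k- regions, the last covering 6800 bp. The sides of the Itgam window held 3 regions each of GMP, k+ and k- in all, 1 before it and 2 after it in each list. The k- list thus had 9 regions inside the Itgam window and 3 in the longer stretch around it.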
